A study of Drosophila melanogaster with 13 samples.

Results

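The heads of control flies from a Drosophila melanogaster study of the histone methyltransferases trr and G9a are described here, as 5 RNA sequencing libraries of the 13 samples in the series. Members were taken by label: the 2 trr controls, which carry 1 copy each of Elav-Gal4, of dicer2 and of the insert P{y[+t7.7]=CaryP}attP2, and the 3 G9a controls, labelled G9a+/+. In the trr controls, Elav-Gal4 drives expression in neurons, a UAS transgene adds the RNA interference enzyme Dicer-2, and the attP2 landing site holds no hairpin against trr. The G9a controls were a precise excision line that keeps an intact G9a gene. Every library came from whole heads of adults labelled 0 to 5 days old, kept on a 12 hour light and dark cycle. The sex of the flies and the hour of collection are not given in the sources used here. The controls served as references within separate experiments, so strain, transgenes and experiment differ together between them and cannot be told apart. A set of 5 libraries of the same experiments, 2 labelled trr knockdown (the same driver and dicer2 with P{TRiP.HMS01019}attP2) and 3 labelled G9a mutant (G9aDD1), is used only to ask whether a background difference recurs.

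A fly head holds the compound eyes, the brain, glia, muscle, a sheath of fat body and the cuticle around them. Photoreceptors are known for very high expression of rhodopsin and of the proteins that start, carry and stop the light response, while the fat body makes lipid carriers and immune peptides that are released into the blood. In whole heads, fewer cells of a type and less RNA per cell cannot be told apart.

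The trr control libraries held 26711776 and 27967500 reads counted in genes, against 18114408, 21148650 and 20238511 in the G9a controls. Reads that fell outside genes took 10.3 and 9.29% of all reads in the trr controls, against 13.0, 13.8 and 16.8% in the G9a controls, so this share did not overlap between the backgrounds. Nor did the share not aligned, at 10.7 and 10.5% in the trr controls, against 20.4, 14.1 and 12.2% in the G9a controls. Ambiguous reads took 2.55 and 2.41% in the trr controls, against 1.58, 1.93 and 1.83% in the G9a controls, again without overlap. Between 9253 and 9548 of 15682 genes per library reached 1 CPM (counts per 1000000 gene counts). A CPM is a share of the reads of a library and grows with transcript length, so a rank by CPM orders genes by reads and not by molecules. Replicates were labelled as separate biological samples. No library stood apart in its ranks of all genes: Spearman's rho across 11821 genes, which are not independent replicates, was 0.985 to 0.991 between libraries of a background and 0.949 to 0.960 between backgrounds.

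The genes named in the genotypes were read first. G9a had 53.8 and 46.7 CPM in the trr controls, against 60.0, 57.1 and 50.0 CPM in the G9a controls. Its log2 fold change of trr controls over G9a controls was -0.09 (SE 0.14, adjusted p = 0.653) in edgeR's quasi-likelihood test, which is named by its adjusted p from here on, with Benjamini-Hochberg adjustment over all genes tested. For trr the values were 73.5 and 92.6 CPM in the trr controls, against 102, 108 and 96.8 CPM in the G9a controls, with a log2 fold change of -0.24 (SE 0.15, adjusted p = 0.26). The neuronal RNA-binding gene elav, whose promoter gives the driver its name, had 205 and 192 CPM in the trr controls, against 203, 199 and 213 CPM in the G9a controls and a log2 fold change of 0.01 (SE 0.11, adjusted p = 0.946). None of these 3 genes passed the test.

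Dcr-2, the RNase III enzyme that makes small interfering RNA, had 113 and 82.1 CPM in the trr controls, against 11.8, 9.27 and 10.5 CPM in the G9a controls. The lower of the trr controls stood well above every G9a control, and the log2 fold change was 3.27 (SE 0.17, adjusted p = 8.53e-06). Reads of the transgene and of the endogenous gene are counted together, and Dcr-2 overlaps Rab4 in the annotation. Of the body and eye colour genes, y, needed for dark cuticle pigment and carried as the marker of the attP2 insert, had 2.88 and 1.32 CPM in the trr controls, against 0.442, 0.0946 and 0.0988 CPM in the G9a controls, at a log2 fold change of 3.36 (SE 0.70, adjusted p = 0.00766). The tryptophan oxygenase gene v, needed for brown eye pigment, had 33.7 and 29.2 CPM in the trr controls, against 15.9, 13.1 and 13.0 CPM in the G9a controls, at 1.23 (SE 0.16, adjusted p = 7.47e-04). The pigment transporter gene w had 117 and 140.0 CPM in the trr controls, against 63.7, 83.2 and 89.3 CPM in the G9a controls, at 0.77 (SE 0.17, adjusted p = 0.0102). Per the study's stock list, the Elav-Gal4 and UAS-dicer2 insertions carry w[+mW.hs] and w[+mC] markers, so reads of w may include the transgenes. w lies within kirre and y overlaps CG32816, and the strand setting of the counting is not given in the sources used here, so reads of overlapping genes may be mixed. Without trr control replicate 1 the call of y was lost (2.74, adjusted p = 0.0764), and without trr control replicate 2 that of w (0.58, adjusted p = 0.0744). The proneural gene sc had 0 counts in all 5 libraries.

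Photoreceptor genes were among the highest in both backgrounds. ninaE, the rhodopsin of the outer photoreceptors, ranked first in every library, with 50457 and 54989.8 CPM in the trr controls, against 25339.8, 32642 and 32835 CPM in the G9a controls. It passed the test as higher in the trr controls, with a log2 fold change of 0.87 (SE 0.15, adjusted p = 0.00359). The arrestins, which switch off active rhodopsin, differed from each other: Arr1 had 9306 and 11025 CPM in the trr controls, against 4891, 5416 and 5326 CPM in the G9a controls (log2 fold change 1.03 (SE 0.14, adjusted p = 0.00106)), while Arr2 had 11160.0 and 14121 CPM in the trr controls, against 13824, 13694 and 11935 CPM in the G9a controls and overlapped between the groups (log2 fold change 0.01 (SE 0.16, adjusted p = 0.97)). The light-gated channel genes trp and trpl had mean levels of 2722 and 3121 CPM in the trr controls, against 3522 and 2591 CPM in the G9a controls, and neither passed the test. The photoreceptor myosin gene ninaC did not pass it either, at 3066 and 3064 CPM in the trr controls, against 3412, 3597 and 3196 CPM in the G9a controls.

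**Figure D1:**
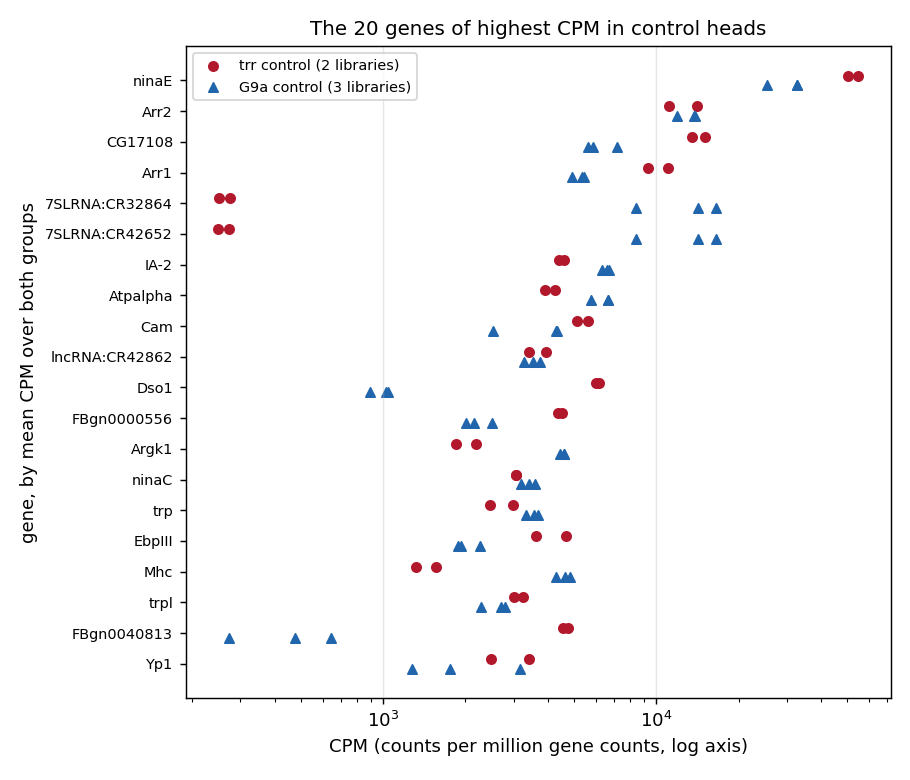
CPM per library on a log axis for the 20 genes of highest mean CPM over both backgrounds, 1 row per gene, with circles for the 2 trr controls and triangles for the 3 G9a controls. ninaE leads in every library, the pair of 7SL RNA rows and Mhc lie far to the right in the G9a controls, and Dso1 and FBgn0040813 lie far to the right in the trr controls.

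Outside the eye, the 20 genes of highest CPM came from several tissues. Of the 20, 11 were called, 7 higher and 4 lower. CG17108 ranked 2 in the trr controls and 7 in the G9a controls, with 13508 and 15099.5 CPM in the trr controls, against 7155, 5628 and 5859 CPM in the G9a controls (log2 fold change 1.27 (SE 0.16, adjusted p = 6.80e-04)). Dso1, an antifungal peptide gene of the Toll response, ranked 5 in the trr controls and 117 in the G9a controls, with 6164 and 5995 CPM in the trr controls, against 894, 1045 and 1024 CPM in the G9a controls (log2 fold change 2.68 (SE 0.13, adjusted p = 5.18e-06)). EbpIII, named for the ejaculatory bulb and read here from heads, had 3635 and 4649 CPM in the trr controls, against 1922, 2259 and 1883 CPM in the G9a controls (log2 fold change 1.10 (SE 0.16, adjusted p = 0.00148)). The genes FBgn0000556 and FBgn0040813, which have no symbol in the tables used, were higher by log2 fold changes of 1.06 (SE 0.15, adjusted p = 0.00113) and 3.38 (SE 0.31, adjusted p = 1.27e-04). Lower in the trr controls were the muscle myosin heavy chain gene Mhc, with 1322 and 1555 CPM in the trr controls, against 4809.9, 4619 and 4287 CPM in the G9a controls (log2 fold change -1.60 (SE 0.15, adjusted p = 1.68e-04)), and the arginine kinase gene Argk1, with 1843 and 2192 CPM in the trr controls, against 4603, 4594 and 4444 CPM in the G9a controls (log2 fold change -1.11 (SE 0.15, adjusted p = 8.81e-04)). Atpalpha, the catalytic subunit of the sodium pump, and the secretory vesicle protein gene IA-2 had adjusted p-values of 0.0109 and 0.0218, but their folds were below the limit of 1.5, and IA-2 overlaps gNacalpha among others. The calmodulin gene Cam, the non-coding gene lncRNA:CR42862 and the yolk protein gene Yp1 did not pass the test. Yp1 had 3419 and 2482 CPM in the trr controls, against 1759.9, 1274 and 3163 CPM in the G9a controls, a wide spread in the G9a controls.

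The genes furthest apart in rank at the top were both copies of 7SL RNA, the RNA part of the signal recognition particle. 7SLRNA:CR32864 had 250.5 and 274 CPM in the trr controls, against 16607, 8444 and 14240.5 CPM in the G9a controls, and 7SLRNA:CR42652 had 248 and 272 CPM in the trr controls, against 16521, 8442 and 14238 CPM in the G9a controls. The log2 fold changes were -5.58 (SE 0.34, adjusted p = 1.83e-05) and -5.59 (SE 0.34, adjusted p = 1.83e-05). The copies are nearly identical, so how reads were split between them is uncertain. Genes annotated as ribosomal RNA or as ribosomal RNA pseudogenes, taken as 1 class, moved with them. The class took 0.00121 and 0.000833% of gene counts in the trr controls, against 0.0709, 0.0484 and 0.0613% in the G9a controls. All 6 that were tested were called lower. Pseudogenes held much of the class: 18SrRNA-Psi:CR41602 had 201 and 137 counts in the trr controls, against 8029, 6389 and 7909 counts in the G9a controls. These RNAs were meant to be depleted by the selection of polyadenylated RNA, and the part of that step in the difference was not tested. Protein-coding genes took 93.0 and 93.1% of gene counts in the trr controls, against 89.5, 91.3 and 90.2% in the G9a controls. The 717 genes with no matched annotation took 6.05 and 5.94% in the trr controls, against 6.25, 6.07 and 5.99% in the G9a controls. All 37 mitochondrially encoded genes had 0 counts in each library, so the rankings by CPM do not cover them. Whether their reads were left out before counting is not given in the sources used here, and the 0 counts cannot be read as absent RNA.

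The rankings were less alike at the top than further down. The top 10 of each background shared 5 genes, the top 50 shared 26 (52%), the top 200 shared 136 (68%) and the top 1000 shared 824 (82.4%). The 10 genes of highest CPM took 11.4 and 12.5% of gene counts in the trr controls, against 10.6, 9.69 and 10.6% in the G9a controls. A total of 466 and 424 genes held 50% of the counts in the trr controls, and 483, 509 and 476 did so in the G9a controls.

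Which genes differed between the backgrounds was asked across the whole table. Of 11821 genes with at least 10 counts over the 5 libraries, 2913 were called (24.6%), at an adjusted p under 0.05 and a fold over 1.5. Of these, 1623 were higher in the trr controls (13.7% of genes tested) and 1290 were lower (10.9%). The groups did not overlap for 2910 of them, but a low adjusted p favours such genes, so this count adds no separate evidence. Lack of overlap was common without a call as well. Of 11070 tested genes away from chromosome 4 and the centromere ends, called or not, 2917 were higher and 3513 lower without overlap. The fold was over 2 for 1712 called genes and over 4 for 761, of which 371 were higher and 390 lower. The median log2 fold change over all genes tested was -0.02. By mean level, 13.1% were called under 1 CPM (98 higher and 210 lower), 31.8% between 1 and 10 CPM, 24.5% between 10 and 100 CPM, 28.8% between 100 and 1000 CPM, and 46.6% of the 118 genes over 1000 CPM. For scale, the same test called 118 of 11416 genes (1.03%) for trr knockdown over trr control libraries, and 932 of 12329 genes (7.56%) for G9a mutant over G9a control libraries. When the share of reads outside genes entered the fit as a covariate, 822 genes were called, and 787 of these were among the 2913. That share separates the groups, so its part in the difference could not be told apart from the background.

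**Figure D2:**
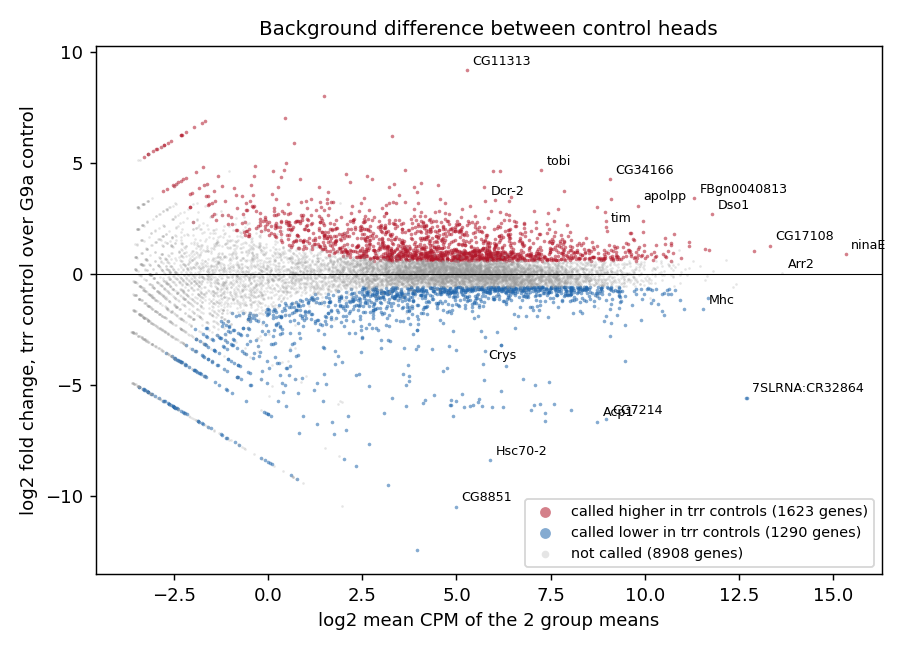
Log2 fold change of trr controls over G9a controls (vertical axis) against the log2 of the mean of both group mean CPMs (horizontal axis), 1 point per gene tested. Of 11821 genes, 1623 were called higher and 1290 lower, and called genes are found from under 1 CPM up to ninaE.

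The largest increases included genes almost silent in the G9a controls. CG11313 had 83.7 and 72.0 CPM in the trr controls, against 0.331, 0 and 0.0988 CPM in the G9a controls, a log2 fold change of 9.17 (SE 0.41, adjusted p = 5.18e-06). Reepl1, a member of the REEP family of endoplasmic reticulum proteins, had 161 and 140 counts in the trr controls, against 1, 0 and 0 counts in the G9a controls, and its summed counts, scaled to library totals, were 328-fold higher (58.3 to 12979.8), where the bracket is the exact 95% interval for counting error only. CG3513 and CG16704 had log2 fold changes of 6.20 (SE 0.40, adjusted p = 2.20e-05) and 4.67 (SE 0.21, adjusted p = 5.18e-06). tobi, a glucosidase gene named as a target of brain insulin, had 265 and 322 CPM in the trr controls, against 11.9, 11.3 and 13.4 CPM in the G9a controls (log2 fold change 4.65 (SE 0.16, adjusted p = 1.92e-06)), and it overlaps rha. The Bomanin genes BomS6 and BomT2, which encode secreted peptides of the Toll response, were both called. BomS6 had 126 and 113 CPM in the trr controls, against 1.82, 6.86 and 6.42 CPM in the G9a controls, and BomT2 had 139 and 135 CPM in the trr controls, against 2.37, 7.57 and 7.51 CPM in the G9a controls, at log2 fold changes of 4.62 (SE 0.39) and 4.61 (SE 0.36). CG43071, the forkhead gene Crg-1 and CG15369 completed the 10 largest increases, at log2 fold changes of 4.47, 4.40 and 4.26.

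The largest decreases were in genes almost silent in the trr controls, and the G9a controls were uneven for some of them. CG8851 had 1 and 1 counts in the trr controls, against 1278, 1334 and 1131 counts in the G9a controls, a count ratio 1719.8-fold lower (476 to 14206) on the same basis. Its neighbour CG3213 was 541-fold lower (96.8 to 21415), with 0 and 1 counts in the trr controls, against 195, 171 and 223 counts in the G9a controls. The heat shock cognate gene Hsc70-2 had 0.449 and 0.215 CPM in the trr controls, against 109.9, 134 and 112 CPM in the G9a controls (log2 fold change -8.41 (SE 0.26, adjusted p = 1.31e-06)). The transporter gene Oatp33Eb, the cuticle protein gene Ccp84Ab and CG31157 were 445-fold lower (79.5 to 17603), 180.1-fold lower (49.5 to 1492) and 119-fold lower (40.5 to 580.3), on summed counts of 1, 2 and 3 in the trr controls. The other genes of the 10 rested on uneven libraries. CG16826 had 950, 8 and 825 counts in the G9a controls, whe had 171, 12 and 889, CG13947 had 81, 7 and 405, and the accessory gland gene Mst57Da had 13, 15 and 741, against 0 to 2 counts of each in the trr controls. Each of these 4 genes lost its call when either trr control was left out (adjusted p = 0.0977 to 0.196).

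Among genes in the top 200 of a background, 264 in all, 135 were called (51.1%), 78 higher and 57 lower. CG34166 had 968 and 1086 CPM in the trr controls, against 46.9, 50.5 and 71.1 CPM in the G9a controls (log2 fold change 4.26 (SE 0.20, adjusted p = 5.18e-06)). The drosomycin-like peptide gene Drsl4 had 923 and 1064 CPM in the trr controls, against 88.8, 101 and 115 CPM in the G9a controls (log2 fold change 3.36 (SE 0.16, adjusted p = 5.18e-06)). apolpp, the precursor of the main lipid carrier of fly blood, had 1769 and 1447 CPM in the trr controls, against 148, 213 and 243 CPM in the G9a controls (log2 fold change 3.06 (SE 0.20, adjusted p = 2.52e-05)), and it overlaps Zyx. On the other side, the adult cuticle gene Acp1 had 8.24 and 7.69 CPM in the trr controls, against 884, 712 and 939 CPM in the G9a controls (log2 fold change -6.67 (SE 0.21, adjusted p = 1.31e-06)). CG7214 and CG7203 lie next to Acp1 in the gene order and were lower, at log2 fold changes of -6.55 (SE 0.16, adjusted p = 7.28e-07) and -3.93 (SE 0.26, adjusted p = 2.33e-05).

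List counts below are to be read against the 13.7% of all genes called higher and the 10.9% called lower. Of 28 photoreceptor and phototransduction genes tested, 7 were called higher and 5 lower, at a median log2 fold change of -0.04, close to that of all genes. The ocellar rhodopsin gene Rh2 had 341 and 313 CPM in the trr controls, against 129, 164 and 151 CPM in the G9a controls (log2 fold change 1.21 (SE 0.13, adjusted p = 2.63e-04)), and Rh6, the rhodopsin of a subset of inner photoreceptors, was higher by 0.98 (SE 0.14, adjusted p = 0.00137) on the log2 scale. The genes lower in the trr controls included those of the lens and of the space around the light-sensing membranes. Crys, a lens protein gene, had 4.94 and 6.08 CPM in the trr controls, against 115, 80.4 and 99.7 CPM in the G9a controls (log2 fold change -4.09 (SE 0.23, adjusted p = 1.21e-05)). retinin, a protein of the corneal surface, and eys, needed to open the space between rhabdomeres, were lower, at log2 fold changes of -1.17 (SE 0.13, adjusted p = 3.81e-04) and -1.42 (SE 0.13, adjusted p = 1.56e-04).

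Of 19 neuron genes, 3 were called higher (15.8%) and 2 lower (10.5%), near the shares of all genes, with a median of -0.12. Snap25, a SNARE protein of synaptic vesicle fusion, had 276 and 278 CPM in the trr controls, against 65.8, 119 and 126 CPM in the G9a controls (log2 fold change 1.48 (SE 0.24, adjusted p = 0.00217)), and the elav relative fne was higher by 1.06 (SE 0.30, adjusted p = 0.029). The microtubule protein gene futsch was lower, at 593 and 584 CPM in the trr controls, against 1575, 1324 and 1186 CPM in the G9a controls (log2 fold change -1.15 (SE 0.16, adjusted p = 0.00107)). The call of fne was lost without either trr control (adjusted p = 0.124 and 0.0925). Of 15 glial genes, 5 were called higher and 1 lower, with a median of 0.16. The glutamine synthetase gene Gs2 had 2721 and 3635 CPM in the trr controls, against 1113, 1644 and 1495 CPM in the G9a controls (log2 fold change 1.24 (SE 0.20, adjusted p = 0.00232)). The astrocyte gene alrm and the GABA transporter gene Gat were higher by 1.21 (SE 0.16, adjusted p = 7.29e-04) and 1.47 (SE 0.31, adjusted p = 0.00814), and the transporter gene Eaat2 was lower, at a log2 fold change of -0.67 (SE 0.13, adjusted p = 0.00675), a call lost without trr control replicate 2, at -0.58 and under the fold limit.

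Muscle genes moved together. The flight muscle list also holds genes of muscle in general, such as Mhc, so its calls are not particular to flight muscle. Of 12 genes of the list tested, 10 were called lower in the trr controls and 1 higher, at a median log2 fold change of -1.66. Their summed level was 4227 and 4445 CPM in the trr controls, against 14270, 13775 and 13740 CPM in the G9a controls. sls, the titin-like protein of the sarcomere, had 199 and 173 CPM in the trr controls, against 987, 889 and 849 CPM in the G9a controls (log2 fold change -2.23 (SE 0.14, adjusted p = 2.12e-05)). Paramyosin, from Prm, and the myosin light chain gene Mlc2 were lower, at log2 fold changes of -2.12 (SE 0.13, adjusted p = 1.76e-05) and -1.84 (SE 0.15, adjusted p = 8.46e-05). The exception was fln, a thick filament gene known from flight muscle, which overlaps an antisense gene. It was higher, at 15.5 and 17.6 CPM in the trr controls, against 5.52, 6.81 and 7.81 CPM in the G9a controls (log2 fold change 1.37 (SE 0.19, adjusted p = 0.00119)).

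Of 15 head fat body genes, 4 were called higher and 0 lower in edgeR, with a median of 0.35. At an unadjusted p under 0.05, 7 were higher and 2 lower, and DESeq2 called 4 higher and 0 lower. Besides apolpp, Pepck1, a gluconeogenic enzyme gene, had 1462 and 1658 CPM in the trr controls, against 444, 464 and 410.2 CPM in the G9a controls (log2 fold change 1.89 (SE 0.13, adjusted p = 3.53e-05)). Without replicate 3 of the G9a controls, 7 of the 15 were called higher and 2 lower, and the median was 1.01. Desat1, a fatty acid desaturase gene of the oenocyte list, had 3478 and 3186 CPM in the trr controls, against 1357, 1191 and 1283 CPM in the G9a controls (log2 fold change 1.44 (SE 0.13, adjusted p = 1.14e-04)). Other tissues were thinly read. The midgut protease list also holds the maltase genes Mal-A1 and Mal-A4 and the mannosidase gene LManII, which are not proteases. Of 15 genes of this list tested, 1 was called higher by edgeR, while 14 had fitted values below 0 and DESeq2 called 3 lower. Without replicate 3 of the G9a controls, 5 of them could be tested and 0 were called lower by edgeR. Of 11 testis and accessory gland genes 3 were called lower by edgeR and 4 by DESeq2. Without that replicate 5 could be tested and 0 were called lower by edgeR, and with the share of reads outside genes as a covariate 0 were called and the median was 1.16, against -3.08 (-1.66 with genes at the floor set to their bound). The testis and accessory gland list summed to 3.59 and 3.93 CPM in the trr controls, against 4.20, 6.15 and 19.4 CPM in the G9a controls, highest in replicate 3.

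Defence genes stood mostly on the side of the trr controls. Of 19 antimicrobial peptide genes tested, 11 were called higher and 1 lower, at a median log2 fold change of 1.83. Their summed level was 2916 and 2741 CPM in the trr controls, against 695, 905 and 946 CPM in the G9a controls. Much of this gap came from Drsl4 and Drsl5, at mean levels of 994 and 859 CPM in the trr controls, against 102 and 131 CPM in the G9a controls. The drosomycin-like gene Drsl5 had 796 and 921 CPM in the trr controls, against 128, 151 and 114 CPM in the G9a controls (log2 fold change 2.78 (SE 0.15, adjusted p = 1.17e-05)), and the Bomanin gene BomS2 had 133 and 124 CPM in the trr controls, against 11.8, 28.8 and 35.4 CPM in the G9a controls (log2 fold change 2.40 (SE 0.35, adjusted p = 0.00149)). AttC, an attacin gene, had 75.8 and 22.5 CPM in the trr controls, against 6.62, 21.3 and 12.3 CPM in the G9a controls (log2 fold change 1.91 (SE 0.51, adjusted p = 0.0231)), and lost its call without replicate 1 of either background (0.85, adjusted p = 0.253, and 1.60, adjusted p = 0.0536). The defensin gene Def went the other way, at 23.5 and 25.5 CPM in the trr controls, against 61.9, 31.4 and 65.0 CPM in the G9a controls (log2 fold change -1.05 (SE 0.30, adjusted p = 0.0294)), a call lost without any 1 of the trr controls or of G9a control replicates 1 and 3 (adjusted p = 0.146, 0.101, 0.0742 and 0.0635). Of 4 Turandot genes, stress-induced secreted factors, 3 were called higher and 1 lower, led by TotA, with 87.0 and 110.0 CPM in the trr controls, against 3.64, 9.50 and 7.56 CPM in the G9a controls (log2 fold change 3.90 (SE 0.32, adjusted p = 7.56e-05)).

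**Figure D3:**
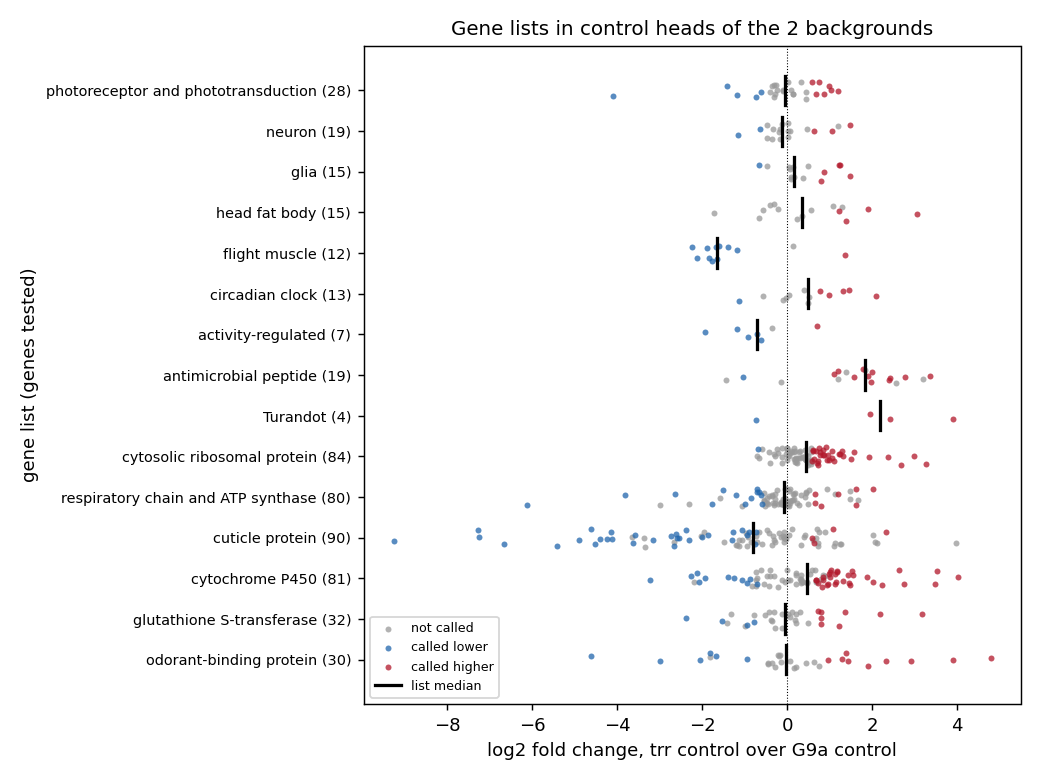
Log2 fold change of trr controls over G9a controls (horizontal axis) for each tested gene of 15 lists (rows, with the number of genes tested), as red points called higher, blue points called lower and grey points not called, with a bar at the list median. Flight muscle (median -1.66) and cuticle (median -0.81) lie to the left, antimicrobial peptide (1.83) and Turandot (2.18) to the right, and photoreceptor genes centre near 0.

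Of 13 circadian clock genes, 5 were called higher and 1 lower, with a median of 0.49. Proteins of tim and per repress the activator encoded by Clk, and those of vri and Pdp1 feed back on Clk transcription. tim had 773 and 833 CPM in the trr controls, against 201, 212 and 176 CPM in the G9a controls (log2 fold change 2.10 (SE 0.13, adjusted p = 2.09e-05)). per was higher by 0.78 (SE 0.16, adjusted p = 0.00665), vri by 1.47 (SE 0.16, adjusted p = 2.89e-04), Pdp1 by 1.32 (SE 0.26, adjusted p = 0.00591), and the clock neuron peptide gene Pdf by 1.00 (SE 0.15, adjusted p = 0.00155). Clk was lower, at 15.0 and 10.5 CPM in the trr controls, against 37.3, 25.5 and 23.4 CPM in the G9a controls (log2 fold change -1.12 (SE 0.24, adjusted p = 0.00967)). Without trr control replicate 2 the calls of Clk (-0.93, adjusted p = 0.0714) and per (log2 fold change 0.54, under the fold limit) were lost. Of 7 activity-regulated genes, 5 were called lower and 1 higher, with a median of -0.72. Arc1, which encodes a capsid-like protein of synapses, had 54.1 and 59.2 CPM in the trr controls, against 216, 196 and 262 CPM in the G9a controls (log2 fold change -1.92 (SE 0.17, adjusted p = 1.03e-04)), and the transcription factor genes sr and Hr38 were lower, at log2 fold changes of -1.18 (SE 0.16, adjusted p = 0.00106) and -0.92 (SE 0.17, adjusted p = 0.00463).

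The dosage compensation RNAs lncRNA:roX1 and lncRNA:roX2, which are made in males, were both higher in the trr controls. lncRNA:roX1 had 2176 and 2261 CPM in the trr controls, against 754, 898 and 666 CPM in the G9a controls (log2 fold change 1.59 (SE 0.15, adjusted p = 1.54e-04)), and lncRNA:roX2 had 29.6 and 21.2 CPM in the trr controls, against 4.14, 6.86 and 7.02 CPM in the G9a controls (log2 fold change 2.13 (SE 0.24, adjusted p = 3.67e-04)). The yolk protein gene Yp3, expressed in females, had 2951 and 2177 CPM in the trr controls, against 833, 829 and 2145 CPM in the G9a controls and did not pass the test (log2 fold change 1.07 (SE 0.39, adjusted p = 0.0673)). Of 1889 X-linked genes tested, 220 were called higher and 199 lower, and their median log2 fold change was 0.01.

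Among the housekeeping sets, 32 of 84 genes for cytosolic ribosomal proteins were called higher and 1 lower, with a median of 0.45. The set took a summed 66436 and 68014 CPM in the trr controls, against 49359, 47383 and 54148 CPM in the G9a controls. RpL38 had 153 and 149 CPM in the trr controls, against 4.86, 21.8 and 22.4 CPM in the G9a controls (log2 fold change 3.27 (SE 0.47, adjusted p = 0.00144)), RpL39 had 163 and 111 CPM in the trr controls, against 24.0, 20.8 and 22.3 CPM in the G9a controls (log2 fold change 2.67 (SE 0.17, adjusted p = 1.83e-05)), and RpL41, which lies within NaCP60E, was higher by 2.99 (SE 0.30, adjusted p = 2.19e-04). Genes for the respiratory chain and ATP synthase were called in both directions, 7 higher and 13 lower of 80 (25.0%, near the 24.6% of all genes), with a median of -0.08. The complex I subunit genes ND-MLRQ and ND-MWFE lay on opposite sides, at log2 fold changes of 1.62 (SE 0.42, adjusted p = 0.0194) and -2.64 (SE 0.25, adjusted p = 1.63e-04), and ND-MWFE overlaps TppII. Without either trr control the call of ND-MLRQ was lost (adjusted p = 0.0971 and 0.0655).

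Of 90 cuticle protein genes tested, 31 were called lower (34.4%), 4 were called higher and 55 were not called, with a median of -0.81. Their summed level was 1482 and 1421 CPM in the trr controls, against 2843, 2655 and 2749 CPM in the G9a controls. Much of this gap came from Acp1 alone, a member of the list, with 8.24 and 7.69 CPM in the trr controls, against 884, 712 and 939 CPM in the G9a controls. Cpr100A had 7.60 and 8.58 CPM in the trr controls, against 149, 143 and 158 CPM in the G9a controls (log2 fold change -4.15 (SE 0.16, adjusted p = 2.96e-06)), and Ccp84Aa had 0 and 0 counts in the trr controls, against 69, 60 and 72 counts in the G9a controls, at least 29.8-fold lower against a floor of 3 counts per library. Against the trend, Cpr72Ec had 379.7 and 407 CPM in the trr controls, against 235, 194 and 158 CPM in the G9a controls (log2 fold change 1.07 (SE 0.17, adjusted p = 0.00245)), and TwdlE was higher by 2.32 (SE 0.33, adjusted p = 0.00139).

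Cytochrome P450 genes, which encode oxidases of hormones and toxins, were called higher in 31 and lower in 11 of 81 cases, with a median of 0.47. Cyp4ac1 had 22.9 and 17.9 CPM in the trr controls, against 2.04, 1.23 and 2.27 CPM in the G9a controls (log2 fold change 3.52 (SE 0.26, adjusted p = 4.28e-05)), and it overlaps tkv. Cyp4e3 was higher by 2.22 (SE 0.23, adjusted p = 2.47e-04). Cyp6a17 had 21.3 and 6.29 CPM in the trr controls, against 137, 148 and 112 CPM in the G9a controls (log2 fold change -3.22 (SE 0.42, adjusted p = 8.55e-04)), with the trr controls unlike each other. Of 32 glutathione S-transferase genes, 8 were called higher and 4 lower, with a median of -0.05, and GstE2 had 29.8 and 26.5 CPM in the trr controls, against 2.15, 4.02 and 3.56 CPM in the G9a controls (log2 fold change 3.17 (SE 0.23, adjusted p = 4.16e-05)).

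Odorant-binding protein genes were called higher in 9 and lower in 6 of 30 cases, with a median of -0.03. Obp99b had 327 and 396 CPM in the trr controls, against 63.0, 37.8 and 49.2 CPM in the G9a controls (log2 fold change 2.92 (SE 0.22, adjusted p = 4.74e-05)), Obp57a had 20.1 and 14.4 CPM in the trr controls, against 0.994, 1.28 and 1.28 CPM in the G9a controls (log2 fold change 3.91 (SE 0.22, adjusted p = 1.25e-05)), and Obp99d was lower, at a log2 fold change of -2.99 (SE 0.22, adjusted p = 4.31e-05). Of 71 chemoreceptor genes that were read deeply enough to test, out of 181 in the files, 2 were called higher and 6 lower. The odorant receptor gene Or45a was lower, at a log2 fold change of -3.98 (SE 0.35, adjusted p = 1.09e-04), and the ionotropic receptor gene Ir76a was higher by 3.21 (SE 0.34, adjusted p = 2.63e-04). Among 21 eye pigment genes, 7 were called higher and 1 lower, with the kynurenine enzyme gene cn at 2.13 and 2.40 CPM in the trr controls, against 0.442, 0.378 and 0.642 CPM in the G9a controls (log2 fold change 2.27 (SE 0.42, adjusted p = 0.00455)) and the drosopterin enzyme gene pr higher by 1.61 (SE 0.15, adjusted p = 1.65e-04).

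With the share of reads outside genes as a covariate, 7 antimicrobial peptide genes were called higher, 9 genes of the flight muscle list lower, 17 cuticle genes lower and 15 ribosomal protein genes higher, but 0 of the glial genes passed (4 at an unadjusted p under 0.05), and 1 photoreceptor gene was higher and 3 were lower. The medians of these 6 lists kept their sign. Some other lists had fewer calls as well in edgeR, with 8 higher and 3 lower cytochrome P450 genes. Clock genes gave 3 higher and 0 lower, and activity-regulated genes 0 higher and 1 lower. The head fat body list had more, with 8 higher and 0 lower against 4 and 0, at a median of 1.42 against 0.35. Sex marker genes gave 4 higher against 3, and oenocyte genes 2 higher and 0 lower against 1 and 1.

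Called genes lay in runs along the gene order of the Release 6 annotation, which was used for order only. Of 11280 neighbouring pairs of tested genes, 558 had both genes called to the same side and 237 to opposite sides. There were 37 runs of 4 or more neighbours called in 1 direction. Some were families of like genes. BomT2, BomS5, BomS6 and Idgf5 formed a run with a median log2 fold change of 3.75, Ccp84Ad, Ccp84Ab, Ccp84Aa and pb a run of lower genes, and CG31904, Acp1, CG7214 and CG7203 a run at -6.34. CG3213, CG8851, Sr-CIV, CG8852, Spindly and IFT57 formed a run of 6 lower genes at -5.39.

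The 2 longest runs, of 15 and 11 higher genes with medians of 2.02 and 1.91, lay on chromosome 4, the small dot chromosome, which is known for active genes set within heterochromatin. Of 90 genes of chromosome 4 that were tested, 64 were called higher in the trr controls (71.1%) and 2 lower (2.22%), at a median log2 fold change of 1.58. On the other arms the share called higher was 11.6% for X, 14.3% for 2L, 16.0% for 2R, 13.4% for 3L and 11.7% for 3R. The median gene of chromosome 4 had 52.1 and 43.4 CPM in the trr controls, against 13.9, 21.3 and 21.7 CPM in the G9a controls. CaMKII, a kinase gene of synaptic plasticity, had 172 and 147 CPM in the trr controls, against 27.1, 60.1 and 55.5 CPM in the G9a controls (log2 fold change 1.81 (SE 0.28, adjusted p = 0.0018)). The Hedgehog effector gene ci and the Wnt effector gene pan were higher by 1.21 (SE 0.21, adjusted p = 0.00352) and 1.03 (SE 0.11, adjusted p = 2.83e-04), the vesicle calcium sensor gene Syt7 by 1.51 (SE 0.40, adjusted p = 0.0219), and Rad23, a carrier of ubiquitinated proteins, by 2.03 (SE 0.22, adjusted p = 3.17e-04). The call of Syt7 was lost without either trr control (adjusted p = 0.0961 and 0.0808). apolpp is a chromosome 4 gene as well.

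Genes beside the centromeres, where heterochromatin also lies, held many higher genes too. Of the 25 tested genes closest to the centromere end of each of 5 long arms, 125 in all, 58 were called higher (46.4%) and 11 lower (8.80%), at a median log2 fold change of 0.98. The next 25 on each arm gave 43 higher (34.4%) and 4 lower, and the genes from place 51 to 100 gave 19 higher (7.60%) and 39 lower. The arms were not alike: among the closest 25, 13 were called higher at 2L, 16 at 2R, 19 at 3L and 9 at 3R, but 1 at X. X held 7 of the 11 lower calls, at a median of -0.12, and 3R held 3, at a median of 0.15. The lower calls included a run of 4 ribosomal RNA pseudogenes, at a median of -5.44, and only X had enough lower calls to hold it. These genes belong to the ribosomal RNA class that was lower beside 7SL RNA. The MAP kinase gene rl had 35.7 and 30.2 CPM in the trr controls, against 4.09, 7.33 and 7.46 CPM in the G9a controls (log2 fold change 2.45 (SE 0.24, adjusted p = 1.83e-04)). Set1, a histone H3 lysine methyltransferase gene like trr, had 50.2 and 43.3 CPM in the trr controls, against 6.79, 17.5 and 13.9 CPM in the G9a controls (log2 fold change 1.93 (SE 0.31, adjusted p = 0.00217)), and it overlaps MED21. The vacuolar sorting gene lt and the ribosomal gene RpL15 were higher by 1.30 (SE 0.20, adjusted p = 0.0018) and 1.93 (SE 0.13, adjusted p = 2.68e-05), and Snap25 is a gene of this group. Slightly further out, RpL38 and the cohesin loader gene Nipped-B stood in a run of 7 higher genes at a median of 2.27, and RpL10, CkIIalpha, alpha-Cat and ND-MLRQ in a run of 8 at 2.16.

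**Figure D4:**
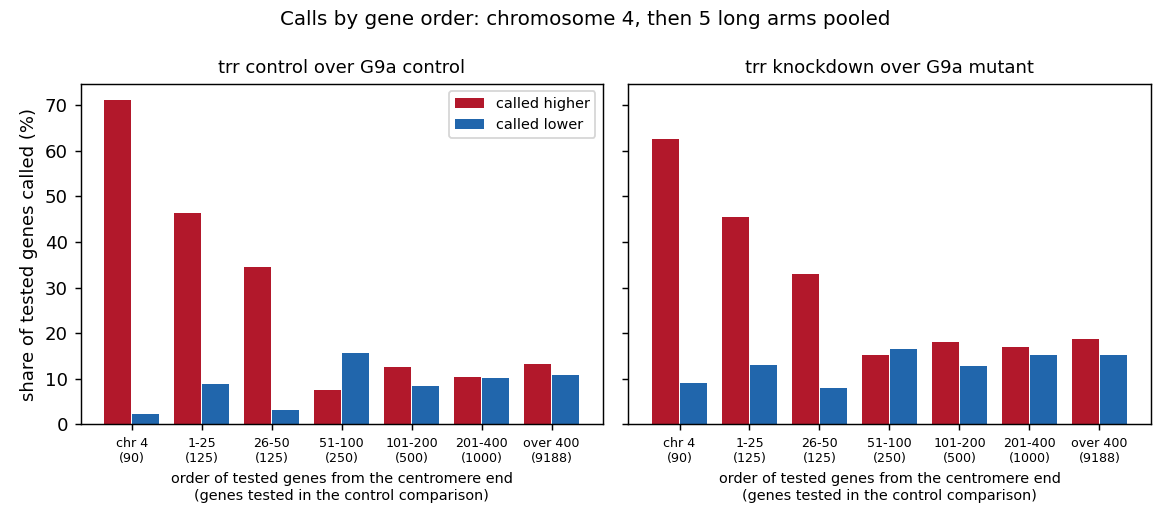
Share of tested genes called higher (red) or lower (blue), in percent, for chromosome 4 and for genes of the X, 2L, 2R, 3L and 3R arms pooled by their place counted from the centromere end, for trr control over G9a control libraries (left) and trr knockdown over G9a mutant libraries (right). In the controls 71.1% of chromosome 4 genes and 46.4% of the closest 25 per arm were called higher, against 13.2% of genes beyond place 400.

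These position groups were formed after the runs had been seen, so their counts are a description. G9a control replicate 1 was the lowest of the 3 G9a controls for 67 of the 90 chromosome 4 genes (74.4%) and for 75 of the 125 genes near centromeres (60%), against 42.9% of the other genes with a position, and its part in the difference was measured by leaving it out. Without it, 120 of these 215 genes were called higher, close to the 122 with it, and the median log2 fold change was 1.15, against 1.30. With the share of reads outside genes as a covariate, 71 of the 215 genes were called higher (33.0%), against 3.57% of the other genes.

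Libraries of a background were not uniform. Among 8255 genes with a mean of at least 100 counts in the trr controls, 22 differed more than 4-fold between the replicates, all with the higher value in replicate 1. CecA1, a cecropin gene, had 13.4 and 0.143 CPM there, and the respiratory gene UQCR-6.4, which overlaps POSH, had 397 and 38.5 CPM. Prosbeta4, a proteasome subunit gene, had 67.0 and 7.83 CPM, mRpL34 had 10.3 and 0.930 CPM and GstE8 had 10.2 and 1.47 CPM. None of these 5 genes passed the test between backgrounds. Among 7904 such genes in the G9a controls, 27 spread more than 4-fold, 20 of them with the highest value in replicate 3. The digestive protease genes betaTry, alphaTry, Jon25Biii and yip7 had 23.1, 21.5, 22.7 and 21.1 CPM in that library and under 1 CPM in each of the other 4 control libraries.

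Whether the background difference recurs was read in the 5 libraries labelled trr knockdown and G9a mutant, which share no sample with the controls but carry the same confounding of strain with experiment. The targeted genes were checked first. trr had 94.1 and 85.9 CPM in the libraries labelled trr knockdown, against 73.5 and 92.6 CPM in the trr controls. G9a had 74.8, 68.5 and 62.3 CPM in the libraries labelled G9a mutant, against 60.0, 57.1 and 50.0 CPM in the G9a controls. Neither target was lower in the libraries labelled as its knockdown or mutant. The knockdown was driven in neurons only, while whole heads were read, and G9a reads outside the deleted stretch do not test the deletion. The counts therefore did not show the change in the targeted gene that either label names.

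Of 12268 genes tested between the libraries labelled trr knockdown and G9a mutant, 4057 were called (33.1%), 2268 higher (18.5%) and 1789 lower (14.6%). Of the 2913 genes called in the controls, 2891 were tested there. The same call was made for 1911 of them (66.1%, and 47.1% of the calls in these libraries), the opposite call for 36, and no call for 944, while 2709 kept the sign (93.7%). The same call was made for 1209 of 1615 genes higher in the trr controls and for 702 of 1276 genes lower there, and the difference between directions was not tested. The difference between the pairs of libraries was itself significant, in the edgeR test of the contrast over 10 libraries, for 1269 of 12871 genes (9.86%). That contrast equals the G9a mutant change less the trr knockdown change, each within its own experiment. An effect of either label therefore enters it, and its part was not tested.

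**Figure D5:**
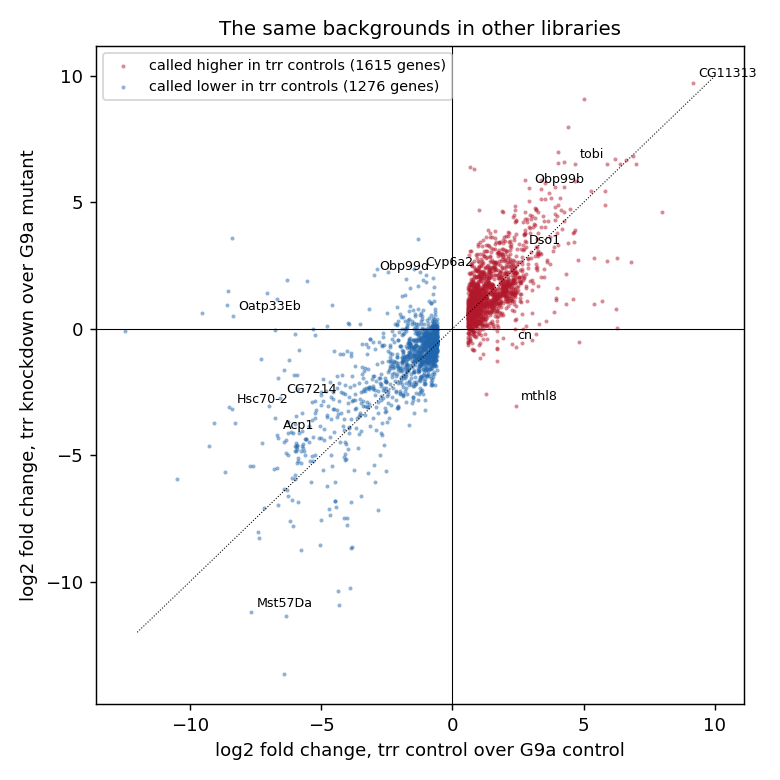
Log2 fold change of trr knockdown over G9a mutant libraries (vertical axis) against that of trr controls over G9a controls (horizontal axis) for the 2891 genes called in the controls and tested in both, with a dotted line of equal values. Of these, 2709 lie on the same side of 0 in both, and mthl8, Cyp6a2 and Obp99d lie on opposite sides.

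Dcr-2, CG11313 and Dso1 recurred with log2 fold changes of 2.95, 9.74 and 3.12, and both 7SL RNA genes with -4.36 and -4.35. Chromosome 4 genes were called higher in 55 of 88 cases and lower in 8, and the closest 25 genes per arm in 56 of 123 and 16. The antimicrobial list gave 10 higher and 1 lower of 19, the clock list 6 and 1 of 13, and flight muscle 2 and 7 of 12. Cuticle genes did not keep their direction, with 29 higher and 23 lower of 100 and a median of 0.14. The 10 largest increases were all called higher again. Of the 10 largest decreases, 1 was called again, Ccp84Ab, with 2 and 11 counts in the libraries labelled trr knockdown, against 168, 125 and 138 counts in those labelled G9a mutant. Hsc70-2 had 14 and 14 counts in the libraries labelled trr knockdown, against 11, 21 and 347 in those labelled G9a mutant. CG8851 had 0 and 1, against 0, 3 and 114, and CG3213 had 3 and 3, against 0, 0 and 474. All 3 genes were low in 2 of the 3 libraries labelled G9a mutant. whe had 736 and 673 counts where labelled trr knockdown, against 299, 0 and 1007 where labelled G9a mutant, and CG16826 had 545 and 408, against 384, 6 and 1071, so both were well read in the libraries labelled trr knockdown.

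The 36 genes with opposite calls included mthl8, a methuselah-like receptor gene, with 90 and 81 counts in the trr controls, against 12, 12 and 12 counts in the G9a controls. In the other libraries it had 63 and 71 counts where labelled trr knockdown, against 508, 526 and 540 counts where labelled G9a mutant. Its log2 fold changes were 2.42 in the controls and -3.04 in the other libraries. The detoxification gene Cyp6a2, which overlaps Epac, had -1.24 and 2.25, and the cuticle gene Cpr49Ae had -0.91 and 1.11.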

How the data were processed

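Total RNA of frozen heads was selected for polyadenylated RNA, converted with random primers and sequenced as 36 bp reads. Per the labels and the study's methods, alignment to dm3 was by BWA 0.6.1 with 1 mismatch allowed, after which the authors counted unique reads per gene with HTSeq on Ensembl BDGP5.75 gene models. The deposited values are raw counts for 15682 genes and 5 summary lines (no feature, ambiguous, too low quality, not aligned, not unique), which were kept out of library sizes and tests (the no feature line held 9.29 to 16.8% of the reads of a control). Symbols were found for 15002 IDs, and biotypes, overlaps and gene order came from RefSeq annotation of Release 6. CPM was the count over the sum of gene rows.

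The 2 trr controls were compared with the 3 G9a controls by edgeR 4.0.16 (R 4.3.3) quasi-likelihood tests, with TMM scaling and genes of at least 10 summed counts, called at an adjusted p under 0.05 and a fold over 1.5. The script was tested on simulated data. DESeq2 1.42.0, other scalings, filters, a replicate block and libraries left out were the alternatives. Depth was 18114408 to 27967500 gene counts per library, and standard errors rest on the spread between libraries, while the intervals of count ratios cover counting error only. Named genes were genotype markers, the 20 of highest CPM, the 10 largest called changes each way without overlap and with a mean of at least 100 counts, the 5 largest each way in the top 200, the 5 most spread genes per group, list examples, and opposite calls. The members and 30 gene lists were chosen with earlier results of these data known. Peak files were not used.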

Additional observations from a re-analysis of the deposited data

Results flagged for a closer look

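The values below are differences between the background contrast in the controls and that in the libraries labelled trr knockdown and G9a mutant, as trr control minus G9a control less trr knockdown minus G9a mutant on the log2 scale. Each passed the edgeR test of that contrast at an adjusted p under 0.05 among 1269 of 12871 genes (9.86%). The same value is the G9a mutant minus G9a control difference less the trr knockdown minus trr control difference. An effect of either label therefore enters it, and its part was not tested.

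The trr controls stood further above the G9a controls than the other pair of libraries did for mthl8, by 5.51, for cn, by 2.93, for lncRNA:roX2, by 1.27, for tim, by 1.04, for lncRNA:roX1, by 0.87, and for Arr1, by 0.68. Among genes high in the trr controls whose contrast was larger still in the other pair, the value was -2.60 for Obp99b, -2.47 for Drsl4, -2.10 for FBgn0040813 and -1.84 for tobi. It was -1.75 for CG17108, -1.65 for TotA, -1.61 for alrm and -1.55 for Cyp4ac1. Smaller values were -1.21 for Pepck1, -1.18 for Desat1, -1.12 for v, -0.98 for Drsl5 and -0.84 for EbpIII.

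Genes low in the trr controls had a contrast that was nearer 0 or turned round in the other pair. The value was -8.84 for Oatp33Eb and -7.81 for CG31157. Oatp33Eb had 1, 2 and 5 counts and CG31157 had 0, 0 and 5 counts in the libraries labelled G9a mutant, so neither was read beyond a few counts there. The difference was -5.09 for Obp99d, -4.67 for Ccp84Aa, -3.75 for CG7214, -2.43 for Acp1, -1.20 for CG7203 and -1.55 for Cpr100A. Ccp84Aa had 0 and 0 counts in the trr controls, so its control fold has no upper limit and the size of its value is uncertain. It was -3.45 for Cyp6a2, -1.97 for Cpr49Ae, -1.83 for Crys, -1.76 for Pepck2 and -1.62 for Arc1. The smallest were -0.71 for eys, -0.66 for Mlc2 and -0.49 for IA-2.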

How the results depend on the processing

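Against 2913 control calls, a test for folds beyond 1.5 (glmTreat) called 1366 genes (801 higher, 565 lower), and the share of reads outside genes as a covariate left 822 (490 higher, 332 lower). DESeq2, RLE scaling, other filters, the adjusted p alone, 1 fit of 10 libraries, scaling without the 20 top genes, and no non-coding genes gave 2795 to 3598, and protein-coding genes only, chosen after seeing the data, gave 2650. Leaving out 1 library gave 2298 to 2733 calls, and 1310 to 1537 higher and 988 to 1212 lower. In the libraries labelled trr knockdown and G9a mutant, glmTreat called 2476 of 4057 (1501 higher, 975 lower), and leaving out 1 library gave 2770 to 4501 calls, with 1176 to 2058 lower (1176 without trr knockdown replicate 1). Replicate numbers did not pair the libraries (correlations of deviations -0.05 and -0.10 for 2 pairs). A replicate block gave 2847 control calls and 4451 in the other libraries, and ended the call of ninaE. Counts per kb of coding length could not be run, since no transcript lengths were used here.

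On the log2 scale, the covariate turned round Mst57Da (2.03) and Jon25Biii (9.91), and leaving out 1 library gave -2.21 to 0.80 for Prosbeta4 and -1.71 to 0.99 for GstE8, positive for Prosbeta4 without trr control replicate 2 and negative for GstE8 without replicate 1. The cause was not tested. The covariate ended the calls of 34 named genes, ninaE, CG17108, Arr1, Argk1, EbpIII, FBgn0000556, w, y, v, lncRNA:roX1, Gs2, Clk, per, ci and pan among them. Leaving out 1 trr control ended those of fne, Syt7 and ND-MLRQ (either), y (replicate 1) and w, per, Clk and Eaat2 (replicate 2). DESeq2 ended that of Syt7. With 2 trr controls, spread within that background rests on a single pair.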

Other observations

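Gene lists not described above were called on a few members each. Of 12 Nimrod genes, receptors of phagocytosis, 5 were higher in the trr controls and 1 lower, at a median log2 fold change of 0.26. Of 24 UDP-glycosyltransferase genes, 4 were higher and 3 lower (median 0.30), and of 17 genes of glycolysis and gluconeogenesis 3 were higher and 1 lower (median 0.15). The lower one was Pepck2, with 14.5 and 9.48 CPM in the trr controls, against 43.2, 44.3 and 36.7 CPM in the G9a controls (log2 fold change -1.73 (SE 0.19, adjusted p = 3.90e-04)), opposite to Pepck1. Of 17 heat shock genes, 2 were higher and 3 lower (median -0.20), against 2 and 0 without replicate 3 of the G9a controls and 0 and 0 with the share of reads outside genes as a covariate (1 at an unadjusted p under 0.05), both in edgeR, and 2 and 4 in DESeq2. Of 10 sex marker genes 3 were higher (6 without replicate 3 of the G9a controls), and of 5 oenocyte genes 1 was higher and 1 lower. Of the 4 tested on the ovary and germ line list, 0 were called by edgeR, 0 by DESeq2 and 0 at an unadjusted p under 0.05. RNAs that mostly lack a poly(A) tail were thinly read: 4 of 23 histone genes were lower in edgeR (1 without replicate 3 of the G9a controls) and 1 in DESeq2, with 0 higher by either tool or at an unadjusted p under 0.05, and of 46 small nucleolar and small Cajal RNA genes 2 were higher and 2 lower.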
